A study of Mus musculus with 24 samples.

Results

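The collagen gene family comprised all gene models whose identifier maps to a mouse protein-coding symbol of the form Col, a type number, a and a chain number, which gave 44 genes of the 36528 in the files. They were sorted by class into 11 fibrillar, 6 basement membrane (type IV), 6 beaded (type VI), 9 FACIT (fibril-associated collagens with interrupted triple helices), 3 short chain network, 1 anchoring fibril, 2 multiplexin and 4 transmembrane chains, with 2 chains outside these classes. RNA was sequenced from cells sorted out of mouse Peyer's patches, the immune follicles in the gut wall. The cells were either fibroblastic reticular cells (FRCs), which lay down the fibres that hold the tissue up, or the endothelium of high endothelial venules (HEVs), where blood lymphocytes cross into it. Mice were left unperturbed (7 FRC and 4 HEV libraries) or drank polyethylene glycol (PEG), an osmotic agent given to lower fluid flow, at 10% w/v in freely available water for 3 days (7 FRC and 6 HEV libraries). Each library came from 1000 cells sorted from 1 mouse. Strain, sex, age and any transgene of the mice are not given in the sources used here, and nothing there ties an FRC library to the HEV library of the same mouse.

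Collagens are secreted or membrane proteins in which chains wind into a triple helix. Fibrillar collagens assemble into the banded fibres that fill FRC conduits, type IV chains form the sheet-like network of basement membranes under endothelium and around conduits, type VI chains form beaded filaments near cells, and FACITs decorate the surface of fibrils. Multiplexins such as types XV and XVIII sit at basement membranes, and transmembrane collagens such as types XIII and XXIII are anchored in the plasma membrane.

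The sequences before the annotated starts of the collagens on which the results turn are printed from RefSeq (GRCm38.p6), which held an entry for 35 of the 44 genes. Col3a1 and Col1a2 were the most abundant fibrillar chains of FRCs, Col6a1 was the most abundant beaded chain, and Col15a1 was the collagen that was higher in HEV than in FRC cells of PEG-treated mice. Each stretch is the 150 bases before the start, 5′ to 3′ on the gene's strand, at chr1:45311388-45311537 (plus strand), chr6:4505468-4505617 (plus), chr10:76726045-76726194 (minus) and chr4:47207862-47208011 (plus), in the order below. The fifth is the plus strand of chr8:11312805-11312826, which runs from the start of Col4a2 to the start of Col4a1, neighbours read in opposite directions that encode the partner chains of the common type IV trimer. Capitals mark any match to CCAAT, to the GC box core GGGCGG and to the TATA letters TATAAA on either strand.
Col3a1: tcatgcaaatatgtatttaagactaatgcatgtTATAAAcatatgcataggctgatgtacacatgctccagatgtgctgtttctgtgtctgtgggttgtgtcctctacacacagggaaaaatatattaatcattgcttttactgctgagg
Col1a2: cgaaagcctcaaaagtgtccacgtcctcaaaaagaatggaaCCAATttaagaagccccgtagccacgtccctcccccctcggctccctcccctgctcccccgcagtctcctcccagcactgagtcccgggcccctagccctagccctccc
Col6a1: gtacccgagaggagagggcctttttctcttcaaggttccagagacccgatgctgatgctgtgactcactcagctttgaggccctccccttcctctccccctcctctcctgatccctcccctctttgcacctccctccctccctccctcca
Col15a1: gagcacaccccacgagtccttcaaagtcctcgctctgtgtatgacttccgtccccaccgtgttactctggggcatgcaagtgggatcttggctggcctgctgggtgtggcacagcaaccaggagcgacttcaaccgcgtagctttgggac
Col4a2 to Col4a1: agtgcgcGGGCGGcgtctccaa

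The starts of Col4a2 and Col4a1 lie 21 bases apart. In the 250 bases before the start, on both strands, the letters CCAAT occurred in 12 of the 35 collagens and in 34.5% of all 27025 promoters in the table. GGGCGG occurred in 21 of 35 collagens against 32.9% of promoters, and TATAAA in 5 of 35 against 13.0%. These matches are a description of the letters and not of bound sites.

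Library totals ranged from 3115003 reads (HEV PEG library 16) to 21710946, and the next lowest was 12416032. The fibroblast markers Pdgfra, Pdpn, Lum, Dpt, Pi16, Mfap5, C3 and Medag summed to 7067 to 10457 CPM (read counts scaled to equal library size) in FRC libraries and to 1.96 to 42.6 CPM in HEV libraries. The endothelial markers summed to 3278 to 4810 CPM in HEV and to at most 114 CPM in FRC libraries. The HEV markers Madcam1, Glycam1, Chst4, Fut7 and Ackr1 summed to 11626 to 20717 CPM in HEV and to at most 407 CPM in FRC libraries. Within these lists Pi16 was sparse in FRC libraries (at most 13.7 CPM), and Chst4 in HEV libraries (at most 9.79 CPM). The sums separate fibroblast from endothelial RNA, and no list particular to FRCs among fibroblasts was examined. Marker genes of pericytes and smooth muscle were also abundant in FRC libraries (3506 to 5304 CPM summed over 10 genes). HEV control library 9 stood apart among HEV libraries, with the highest sums of fibroblast (42.6 CPM, against 1.96 to 5.91 in the other 3 controls), pericyte and smooth muscle (445 CPM, against 13.6 to 201) and lymphatic endothelial markers. Its fibroblast sum was mostly Dpt (33.9 CPM) and Lum (7.87). Pdgfra, Pdpn, Pi16, Mfap5, C3 and Medag were each at most 0.699 CPM there. The pericyte and smooth muscle sum of library 9 was mostly Acta2 (202 CPM), Des (62.5), Myh11 (57.8), Actg2 (52.7) and Cnn1 (48.3). Rgs5 was 12.5 CPM there (12.7 to 29.8 in the other 3 controls), Kcnj8 8.86, and Cspg4, Notch3 and Abcc9 at most 0.291. Epithelial markers varied from 41.0 to 1642 CPM in FRC control, 67.8 to 3642 in FRC PEG, 13.4 to 533 in HEV control and 41.6 to 2435 in HEV PEG libraries. The index pairs of the libraries recur in 3 runs of 8, which were taken as 3 pools. The pool is inferred from the labels and not stated in them.

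The 2 cell types differed in the share of reads that came from collagens and in how these reads were divided among classes. Collagen transcripts made up 2.13% to 3.56% of the reads of FRC control libraries (median 2.25%) and 1.61% to 3.25% in FRC PEG libraries (median 1.85%). In HEV control libraries 8, 9, 17 and 24 the shares were 0.0661%, 0.149%, 0.0377% and 0.0604%, and in HEV PEG libraries they ran from 0.0475% to 0.0895% (median 0.0693%). No HEV library came near an FRC library. Within the collagen reads of FRC controls, fibrillar chains held a median of 71.1%, beaded chains 18.5%, FACITs 5.27%, type IV chains 4.08% and multiplexins 1.12%. In HEV controls, type IV chains held a median of 60.6% (46.6% to 67.3%), multiplexins 18.0% and fibrillar chains 8.36% (2.39% to 30.6%), and the highest fibrillar share was that of library 9. In HEV PEG libraries type IV chains held 70.5% (68.4% to 84.1%) and fibrillar chains 2.79% (0.706% to 5.07%). These are shares of reads and weight long transcripts more than short ones. In summed CPM, type IV chains were higher in FRC controls (median 997) than in HEV controls (median 408). In bulk RNA, fewer cells of a type and less RNA per cell cannot be told apart.

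**Figure D1:**
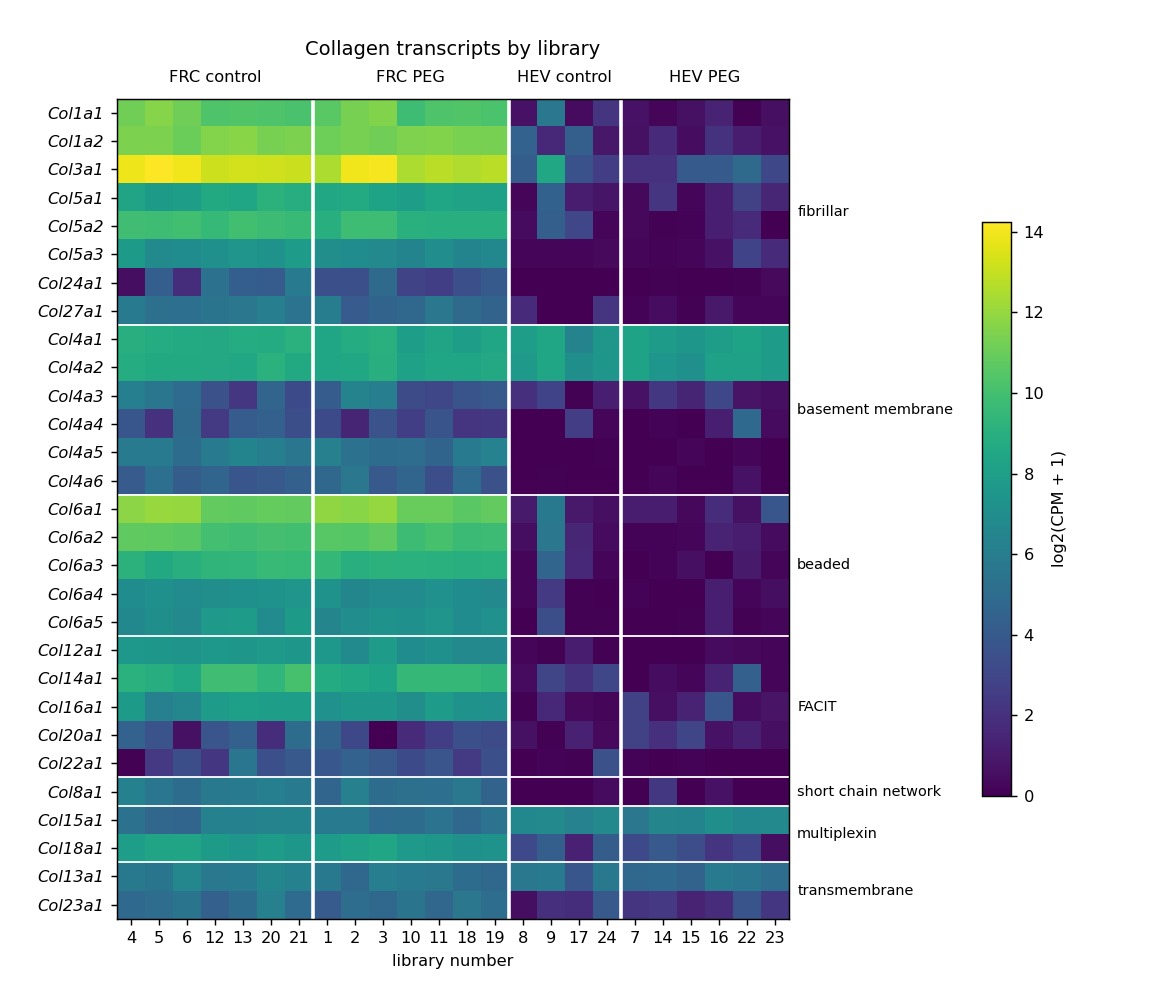
Colour gives log2(CPM + 1) of the 29 collagens with a group mean of at least 10 CPM (rows, by class) in each of the 24 libraries (columns, by group and library number). FRC libraries are bright across the fibrillar, beaded and FACIT rows and also in Col4a1 and Col4a2. HEV libraries are bright mainly in Col4a1, Col4a2, Col15a1 and Col13a1, and single HEV libraries, among them control 9 and PEG 22, show further rows.

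Of the 44 members, 29 reached a mean of 10 CPM in at least 1 of the 4 groups, and the other 15 did not exceed 9.01 CPM in any group mean. A mean of 10 CPM was reached by 29 members in FRC control, 27 in FRC PEG, 10 in HEV control and 5 in HEV PEG libraries. In HEV control, Col1a1, Col6a1, Col6a2 and Col18a1 reached it only through library 9. Their means without it were 1.46, 0.839, 0.900 and 8.97 CPM, so the counts of the HEV groups are not a measure of PEG. The 15 low members were the cartilage-type chains Col2a1, Col11a1, Col11a2, Col9a1, Col9a2 and Col9a3, the hypertrophic cartilage chain Col10a1, the type VI chain Col6a6, the FACIT Col19a1, the short chain Col8a2, the anchoring fibril chain Col7a1, the transmembrane chains Col17a1 and Col25a1, and Col26a1 and Col28a1. Col28a1 was uneven between libraries, at 15.6 CPM in FRC PEG 18, 13.0 in FRC PEG 19 and 8.37 in FRC PEG 2 while 4 of the 7 FRC PEG libraries held no read.

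Levels of different chains were compared on the submitters' length-scaled nRPKM values. In FRC controls Col3a1 had the highest median (1295 nRPKM, range 1211 to 2783), followed by Col1a2 (417, 318 to 482), Col6a1 (358, 319 to 858) and Col1a1 (209, 188 to 537). The range of Col3a1 lay above all of them. Across libraries the ranges of Col1a2 and Col6a1 overlapped, as did those of Col6a1 and Col1a1. Within each FRC control library, however, Col6a1 exceeded Col1a1. Col6a1 also exceeded Col1a2 in each FRC control of pool 1 and lay below it in each of pools 2 and 3. Col6a2 (132), Col5a2 (107), Col14a1 (72.6), Col4a2 (48.5), Col6a3 (45.2) and Col4a1 (44.9) came next. HEV controls had another order, with Col4a2 (median 23.4 nRPKM, 17.1 to 41.9) and Col4a1 (22.1, 8.88 to 35.0) overlapping at the top, then Col15a1 (13.6, 10.8 to 13.9) and Col13a1 (5.75, 1.47 to 6.65). The order was the same in HEV PEG libraries, at medians of 31.0 for Col4a2, 25.4 for Col4a1, 12.3 for Col15a1 and 3.31 for Col13a1.

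HEV cells were compared with FRCs among unperturbed mice (4 against 7 libraries) with edgeR's quasi-likelihood test, with the pool as covariate and Benjamini-Hochberg adjustment over all 15743 genes tested. Of the 34 collagens that passed the count filter, 25 were lower in HEV and 0 were higher at an adjusted p under 0.05, where 14.2% of all genes tested were lower and 10.4% higher. Without adjustment 29 collagens were lower and 1 higher at p under 0.05 (20.1% and 14.8% of genes), the DESeq2 Wald test called 28 lower and 0 higher, and limma-voom 25 lower and 0 higher. Libraries 1 to 9 alone (2 HEV, library 9 among them, against 3 FRC) called 14 lower and 1 higher. The median log2 fold change was -7.67 (-7.50 with 3 chains that had no HEV read set at their bound), against -0.16 over all genes. Many of these chains passed the filter through FRC libraries alone and then had to be lower in HEV, so the count describes the family and lends no weight to any single chain. In 23 chains every HEV library lay below every FRC library, against 11.3% of all genes.

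All 8 fibrillar chains tested were lower in HEV. Col3a1, the chain of reticular type III fibres, had 8817 to 19472 CPM in FRC controls (median 9789), and 17.3, 363, 10.9 and 5.07 CPM in HEV controls 8, 9, 17 and 24. HEV control 9 was the highest, and even it lay well below every FRC library (log2 fold change -8.38 ± 1.27 SE, adjusted p 0.00096). Col1a2, the alpha 2 chain of type I collagen, had 2095 to 3365 CPM in FRC controls (median 2773) and 21.6, 1.98, 18.8 and 0.903 CPM in the HEV controls in the same order (-8.04 ± 1.02, adjusted p 0.00025). Its partner Col1a1 had 1159 to 3182 CPM (median 1323) against 0.633, 51.3, 0.341 and 3.40 CPM (-8.15 ± 1.45, adjusted p 0.0025). The HEV libraries with the most Col1a1 were therefore not those with the most Col1a2: libraries 9 and 24 led for Col1a1, and libraries 8 and 17 for Col1a2. The type V chains, which help to start fibrils, had medians of 341 (Col5a1), 899 (Col5a2) and 159 CPM (Col5a3) in FRC controls. Their fold changes were -7.52 ± 1.16, -7.47 ± 1.20 and -9.66 ± 0.42. Col5a3 was under 0.3 CPM in all 4 HEV controls, library 9 included. Col27a1 had 35.8 to 66.2 CPM in FRC controls and 2.40, 0, 0 and 3.47 CPM in HEV controls. Col24a1, of 0.470 to 60.1 CPM (median 17.8) in FRC controls, had 0 reads in the HEV controls and was at least 478-fold lower, with 3 reads over the group as the floor.

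The 5 beaded chains tested were all lower in HEV. Col6a1, Col6a2 and Col6a3 form the classical type VI heterotrimer, and Col6a4 and Col6a5 encode chains that resemble the alpha 3 chain. Col6a1 had 1722 to 4287 CPM (median 1882) in FRC controls and 1.08, 54.0, 0.955 and 0.486 CPM in HEV controls 8, 9, 17 and 24 (-9.30 ± 1.54, adjusted p 0.0017). For Col6a2 the FRC controls ran from 941 to 1756 CPM (median 1050) and the HEV controls stood at 0.443, 48.5, 1.91 and 0.347 CPM. HEV control 9 was again the one high HEV library. Col6a3 (median 648 CPM in FRC controls), Col6a4 (139) and Col6a5 (134) had log2 fold changes of -8.01 ± 1.32, -7.98 ± 1.13 and -7.83 ± 1.30.

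HEV control 9 held most of the few reads of these chains in its group: 92.5% of 6734 Col3a1 reads, 96.1% of 965 Col6a1 reads, 95.4% of 873 Col6a2 reads and 98.8% of 167 Col6a5 reads. It held 5.13% of 663 Col1a2 reads, 4.76% of 21 Col12a1 reads and 3 of 12 Col5a3 reads. For the collagens that all HEV libraries carried, its share was 43.1% of Col4a1, 43.2% of Col4a2 and 29.8% of Col15a1 reads. Without this library the fold changes of Col1a1, Col3a1, Col6a1 and Col6a5 were -10.18, -9.99, -11.47 and -11.45. The raised markers of this library were mostly Dpt, Lum, Acta2, Des, Myh11, Actg2 and Cnn1. The part that cells carrying this marker RNA had in these values was not tested.

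**Figure D2:**
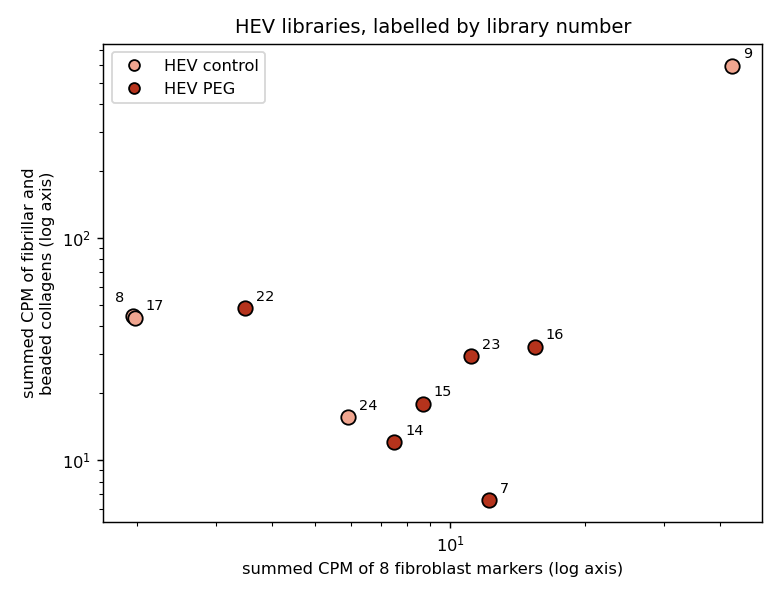
Each point is an HEV library, with the summed CPM of 8 fibroblast markers on the x axis and the summed CPM of the fibrillar and beaded collagens on the y axis, both logarithmic. Library 9 sits alone at the upper right (42.6 and 596 CPM), while the other 9 libraries lie between 6.58 and 48.4 CPM of these collagens. Of the marker sum of library 9, Dpt gave 33.9 CPM and Lum 7.87 CPM.

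FACITs were mostly lower in HEV, with 5 of 7 tested called. Col14a1, a FACIT of interstitial fibrils, had 376 to 1114 CPM (median 677) in FRC controls and 0.316, 6.99, 3.21 and 7.09 CPM in HEV controls (-7.81 ± 0.61, adjusted p 2.8e-06). Col12a1 (165 to 208 CPM) and Col16a1 (71.6 to 259 CPM) had fold changes of -9.29 ± 0.77 and -8.72 ± 0.78. Col12a1 was at most 1.16 CPM in any HEV control. The calls of the sparse chains Col20a1 (-4.84 ± 1.37, adjusted p 0.022) and Col9a2 (0 HEV reads, at least 150-fold lower, adjusted p 0.029) did not hold under every setting. For Col20a1 the adjusted p was 0.14 without FRC control 21 and from 0.057 to 0.062 without HEV control 8, 9 or 24, and for Col9a2 it was 0.050 to 0.067 without FRC control 12, 13 or 20 or any single HEV control. Of the remaining classes, the short chain Col8a1 (31.3 to 75.3 CPM in FRC controls) had 0.347 CPM in HEV control 24 and no read in the other 3 (-9.53 ± 1.00). Col23a1, a transmembrane chain, had 19.9 to 74.2 CPM in FRC controls and 0.443 to 14.5 CPM in HEV controls (-3.49 ± 0.80, adjusted p 0.0072).

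Type IV chains divided by chain. Col4a1 and Col4a2, which build the common basement membrane network, were present in both cell types at levels within a few-fold of each other. Col4a1 had 391 to 547 CPM (median 448) in FRC controls and 242, 338, 83.0 and 182 CPM in HEV controls 8, 9, 17 and 24. All HEV libraries lay below all FRC libraries, with library 17 the lowest (-1.07 ± 0.29, adjusted p 0.020). Col4a2 had 352 to 550 CPM (median 399) against 200, 349, 138 and 187 CPM (-0.91 ± 0.25, adjusted p 0.018). Its highest HEV library, 9, lay just under its lowest FRC library. These 2 calls were narrow: the adjusted p of Col4a1 was 0.052 without HEV control 24, and that of Col4a2 was 0.073, 0.060 and 0.061 without HEV control 8, 17 and 24. The first bases of the 2 genes overlap, and whether counting used strand is not given in the sources used here; without it, reads there could belong to either.

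The remaining type IV chains were sparse in HEV libraries. Col4a5 and Col4a6, which also lie head to head and pair in the basement membrane of smooth muscle and other tissues, had 31.6 to 86.5 and 12.9 to 35.9 CPM in FRC controls. The 4 HEV controls together held 1 read of each among 62020923. On pooled reads this was 3668-fold lower for Col4a5 (exact 95% interval 658 to 144919) and 1228-fold lower for Col4a6 (220 to 48541), where the intervals cover counting error only. Col4a3 and Col4a4, chains of the specialised network of kidney and lung, had medians of 23.6 and 13.0 CPM in FRC controls and did not pass (-3.01 ± 1.11 and -5.36 ± 2.07, adjusted p 0.070 and 0.082). Col4a4 was uneven among HEV libraries, at 5.11 CPM in control 17, 28.8 CPM in PEG 22 and under 1.3 CPM in the other 8.

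Among chains with a median over 50 CPM in FRC controls, Col15a1 and Col13a1 were the ones whose HEV and FRC values overlapped in unperturbed mice. Col15a1, a proteoglycan collagen of vascular and muscle basement membranes, had 99.0, 103, 77.8 and 103 CPM in HEV controls 8, 9, 17 and 24, and 23.7 to 83.5 CPM (median 75.9) in FRC controls. The groups touched, since HEV control 17 fell among the 4 FRC controls of pools 2 and 3 (75.9 to 83.5 CPM), whereas the 3 of pool 1 were lower (23.7 to 40.1 CPM). The difference did not pass (0.82 ± 0.31, adjusted p 0.073). Col13a1, a transmembrane collagen found at cell junctions, had 50.2, 60.4, 12.9 and 53.7 CPM in HEV controls and 45.1 to 96.0 CPM (median 58.8) in FRC controls, which overlapped (-0.54 ± 0.42, adjusted p 0.41). Col18a1, the source of the fragment endostatin, had 176 to 321 CPM (median 224) in FRC controls and 7.97, 18.9, 1.43 and 17.5 CPM in HEV controls (-4.26 ± 0.61, adjusted p 0.00032).

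**Figure D3:**
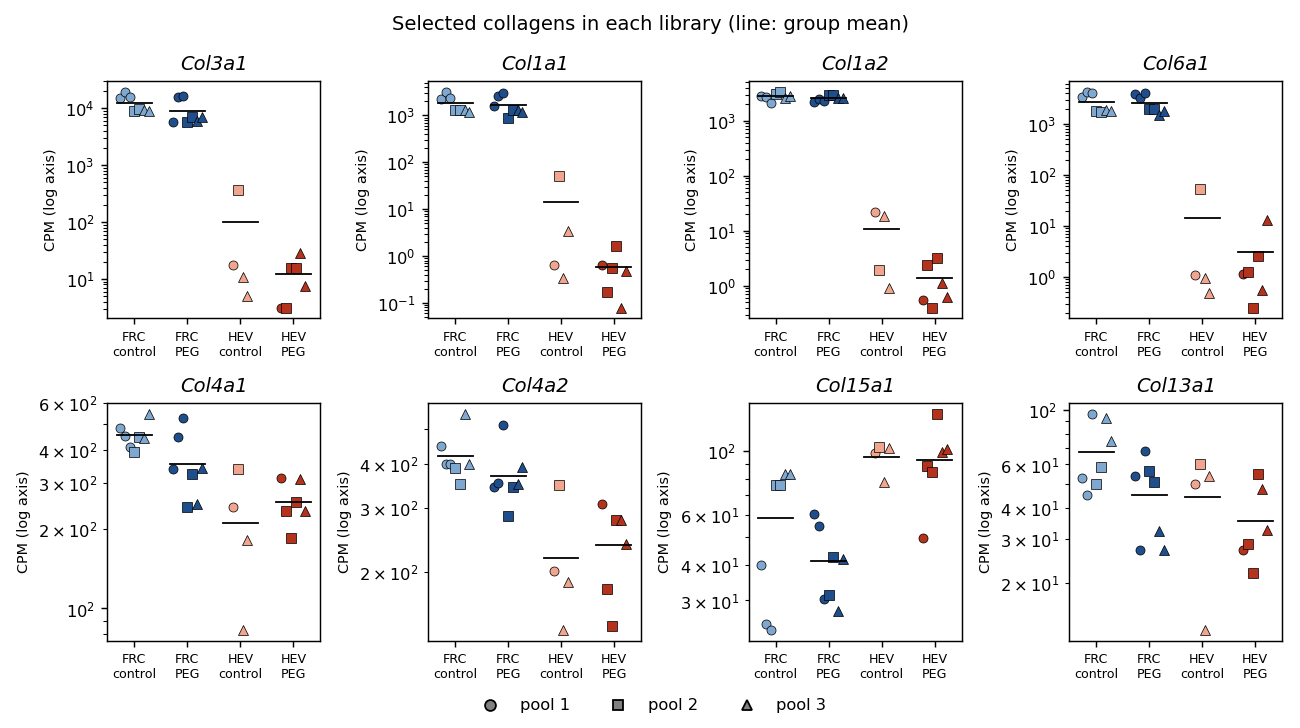
Points are CPM (logarithmic axes) of 8 collagens in each library, grouped by cell type and treatment, with the marker shape giving the inferred pool and the line the group mean. Col3a1, Col1a1, Col1a2 and Col6a1 separate FRC from HEV libraries by more than an order of magnitude, and Col4a1, Col4a2 and Col13a1 do not. The group means of Col15a1 are higher in HEV than in FRC libraries, with overlapping points.

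Among PEG-treated mice (6 HEV against 7 FRC libraries, 14991 genes tested) the same comparison called 23 of 32 tested collagens lower and 1 higher in HEV, where 14.4% of all genes tested were lower and 12.5% higher. The groups did not overlap in 22 chains lower in HEV, against 9.4% of genes. As in unperturbed mice, chains that passed the filter through FRC libraries alone had to be lower in HEV. Both counts therefore describe the family and lend no weight to any single chain. All FRC PEG libraries shared an i5 index (part of the index pair) that no HEV PEG library carried. Cell type and i5 index thus cannot be told apart in any call under PEG, that of Col15a1 included. The median log2 fold change was -7.26, against -0.08 over all genes. All 5 beaded chains and 8 of 9 fibrillar chains were called, and the exception was the sparse Col11a2 (-0.79 ± 2.01). Col1a1 (-11.49 ± 0.55) and Col1a2 (-11.24 ± 0.50) had the largest differences among fibrillar chains, and no HEV PEG library exceeded 1.61 CPM of Col1a1 or 3.21 CPM of Col1a2. Col3a1 had 3.13 to 29.2 CPM (median 11.5) in HEV PEG and 5744 to 16726 CPM (median 6930) in FRC PEG libraries (-9.34 ± 0.78, adjusted p 2.5e-06). Col22a1, a FACIT of tissue junctions, had 3 reads in the HEV PEG group and 1499 in the FRC PEG group, which was 329-fold lower on pooled reads (exact 95% interval 112 to 1598). The call of Col4a3 (-3.37 ± 0.98, adjusted p 0.019) was lost without HEV PEG 7, 22 or 23 (adjusted p 0.054, 0.061 and 0.072).

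Col15a1 was the 1 collagen called higher in HEV under PEG. It had 49.8 to 135 CPM (median 94.4) in the 6 HEV PEG libraries and 27.5 to 60.2 CPM (median 41.9) in the 7 FRC PEG libraries. All HEV libraries but number 7 lay above all FRC libraries, and number 7, the one HEV PEG library of pool 1, lay below FRC PEG 1 and 2 of the same pool (1.22 ± 0.31, adjusted p 0.0086). Among libraries 1 to 9 alone the difference was 0.063, from 1 HEV library against 3 FRC libraries, which is too few to read a test from, and among libraries 10 to 24 alone it was 1.57, which passed. Col4a1 and Col4a2 were not called under PEG, at -0.27 ± 0.17 (adjusted p 0.28) and -0.51 ± 0.18 (adjusted p 0.054). Their HEV PEG libraries had 185 to 311 and 141 to 309 CPM, and their FRC PEG libraries 243 to 527 and 286 to 512 CPM. Whether the distance between HEV and FRC differed between control and PEG mice was tested as an interaction, given below.

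PEG was compared with control in FRCs (7 against 7 libraries, 14595 genes tested). All FRC PEG libraries carried the same i5 index, which only some FRC controls carried. By edgeR 0 of 33 collagens tested passed, as did 0 of all genes (0% called). At an unadjusted p under 0.05, 6 collagens were lower and 0 higher with PEG, where 2.93% of all genes tested were lower and 3.84% higher. The DESeq2 Wald test called 1 collagen lower (Col5a2, adjusted p 0.0066) and limma-voom 0. The log2 fold change was negative for 29 of 33 collagens, against 48.6% of all genes, with a median of -0.28 against 0.01. Leaving out 1 library at a time gave 3 (without FRC control 21) to 8 collagens (without FRC control 5, FRC PEG 1 or FRC PEG 3) at an unadjusted p under 0.05. The median then ran from -0.42 (without FRC control 6) to -0.16 (without FRC PEG 10). By class the medians were -0.47 for fibrillar, -0.35 for FACIT, -0.22 for type IV and -0.096 for beaded chains. The 2 groups separated completely in 0 collagens, against 0.0343% of genes lower and 0.0411% higher with PEG.

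The 6 chains of smallest p are described with their values. Col5a2, a chain of the type V trimer that sets fibril width, had 751 to 984 CPM (median 899) in controls and 480 to 910 CPM (median 514) with PEG. FRC PEG 2 and 3 lay among the controls and the other 5 PEG libraries below all controls (-0.51 ± 0.13, adjusted p 0.51). Col3a1 had 8817 to 19472 CPM (median 9789) in controls and 5744 to 16726 CPM (median 6930) with PEG. Again FRC PEG 2 and 3 were high and the other 5 below every control (-0.44 ± 0.17, adjusted p 0.65). Col5a3 had 107 to 224 CPM (median 159) against 83.7 to 130 CPM (median 105), with 4 of 7 PEG libraries below all controls (-0.58 ± 0.19, adjusted p 0.61). Col14a1 had 376 to 1114 CPM (median 677) against 306 to 719 CPM (median 610), and the groups overlapped widely (-0.35 ± 0.13, adjusted p 0.64). Col4a1 had 391 to 547 CPM (median 448) against 243 to 527 CPM (median 337), with 5 PEG libraries below all controls (-0.37 ± 0.15, adjusted p 0.67). Col12a1, a FACIT of fibrils under tension, had 165 to 208 CPM (median 188) against 103 to 229 CPM (median 119), with 5 PEG libraries below all controls and 1 above them (-0.42 ± 0.18, adjusted p 0.68).

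Other abundant chains had values near 0. The fold changes of Col1a2 and Col1a1 were -0.08 ± 0.08 and -0.09 ± 0.14, and those of Col6a1 and Col6a2 were -0.00 ± 0.09 and -0.08 ± 0.09. Col24a1 (-0.62 ± 0.83) and Col22a1 (0.19 ± 0.87) were uneven between libraries and had wide errors. The epithelial marker sum was higher in the PEG group (median 337 CPM against 126 CPM), with overlapping ranges. With its level as a further covariate, an alternative added after the data were seen, 0 collagens were called, 28 of 33 were negative and the median was -0.22.

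The PEG comparison in FRCs was also made by pool. In pools 2 and 3 (4 against 4 libraries) 28 of 33 collagens were negative with a median of -0.41, and 13 were lower at an unadjusted p under 0.05 against 5.17% of genes tested lower and 5.12% higher. Every PEG library lay below every control in 10 of them, against 4.41% of genes. In pool 1 (3 against 3 libraries) the median was -0.07, and 1 collagen, Col5a1, had an unadjusted p under 0.05 and was higher with PEG (0.52 ± 0.21), against 2.12% of genes higher and 1.76% lower. None passed adjustment in either split. Col15a1 had the smallest p for a difference between the 2 splits: its PEG value was 0.72 ± 0.44 in pool 1 and -1.13 ± 0.23 in pools 2 and 3. Its controls had 23.7 to 40.1 CPM in pool 1 and 75.9 to 83.5 CPM in pools 2 and 3, and its PEG libraries 30.3 to 60.2 and 27.5 to 42.7 CPM. The difference did not pass (1.84 ± 0.45, adjusted p 0.33). Col5a1 (1.08 ± 0.27, adjusted p 0.35) and Col6a3 (0.71 ± 0.22, adjusted p 0.42) followed, 6 of 33 collagens had an unadjusted p under 0.05 against 7.93% of genes, and 0 were called by edgeR (0.00685% of genes). This split was chosen after the data were seen and was tested with edgeR only.

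**Figure D4:**
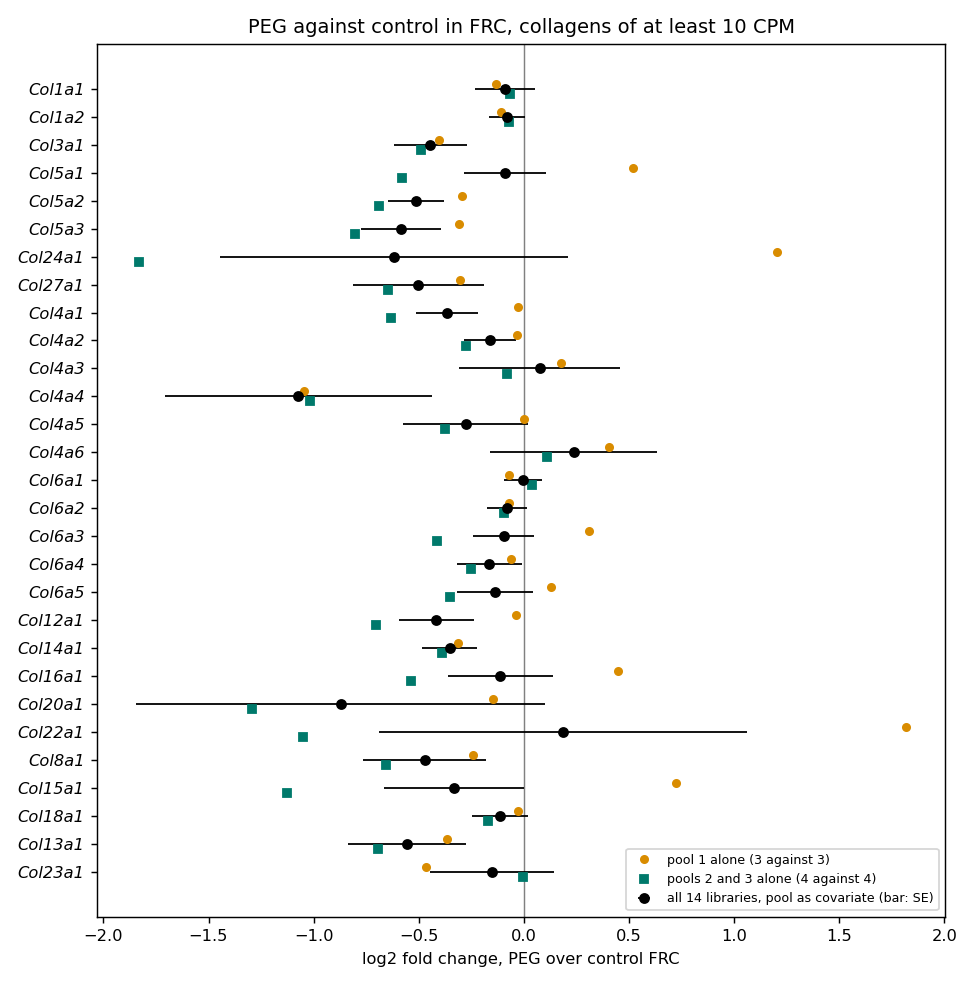
The x axis is the log2 fold change of PEG over control FRCs for collagens with a group mean of at least 10 CPM; black points with bars are the fit of all 14 libraries with its SE, orange circles pool 1 alone and green squares pools 2 and 3 alone. Most black points lie left of 0 within about 2 SE, and Col5a1, Col6a3, Col6a5, Col16a1, Col15a1, Col22a1, Col24a1 and Col4a3 lie right of 0 in pool 1 and left of 0 in pools 2 and 3.

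FRC libraries also differed by pool. With treatment in the model, and chosen after the data were seen, 7 collagens were higher and 1 lower in pool 1 (6 libraries) than in pools 2 and 3 (8 libraries), where 7.19% and 5.28% of all genes were. Col6a1 had 3309 to 4287 CPM in pool 1 and 1528 to 1971 CPM in the others, with no overlap (1.15 ± 0.09, adjusted p 1.9e-06). Col6a2 (0.81 ± 0.09), Col1a1 (1.08 ± 0.14) and Col18a1 (0.69 ± 0.13) also did not overlap, and Col3a1 (0.97 ± 0.17), Col4a3 (2.38 ± 0.39) and Col5a2 (0.44 ± 0.13, adjusted p 0.044) were higher with overlap. Col14a1 was lower, at 306 to 544 CPM against 610 to 1114 CPM (-0.89 ± 0.13, adjusted p 0.00048). Col1a2 did not pass (-0.17 ± 0.08, adjusted p 0.22). Pool and any mouse cohort or sort day cannot be told apart.

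Ratios of partner chains were taken within each library. Reads of Col1a1 over reads of Col1a2 were 0.703 to 1.32 in the 6 FRC libraries of pool 1 and 0.309 to 0.503 in the other 8, with control and PEG libraries in both ranges. The Col6a1 to Col6a2 ratio was 1.97 to 2.69 in pool 1 and 1.76 to 2.29 elsewhere, which overlapped. Col4a1 over Col4a2, by contrast, kept to 0.707 to 1.37 in FRC and 0.603 to 1.31 in HEV libraries, without a split by pool, treatment or cell type. In HEV libraries the Col1a1 to Col1a2 ratio ran from 0.0182 to 25.9 on few reads.

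**Figure D5:**
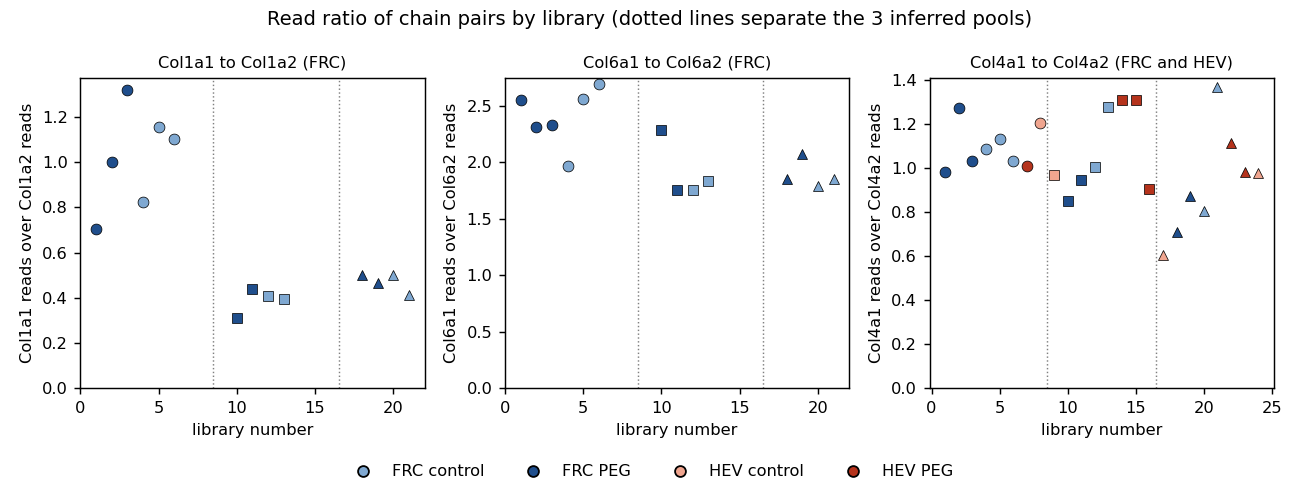
The y axis is the ratio of reads of 2 partner chains in a library and the x axis the library number, with colour for the group and dotted lines between the inferred pools. Col1a1 over Col1a2 drops from 0.703 to 1.32 in the first pool to 0.309 to 0.503 in the others, and Col4a1 over Col4a2 stays between 0.603 and 1.37 in both cell types.

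PEG was compared with control in HEV cells (6 against 4 libraries, 14308 genes tested). All HEV PEG libraries carried the same i5 index, which HEV controls 8 and 24 carried and controls 9 and 17 did not. By edgeR 0 of 18 collagens tested passed, as did 0 of all genes (0% called), and DESeq2 and limma-voom also called 0. At an unadjusted p under 0.05, 1 collagen was lower and 0 higher, against 3.23% and 2.96% of genes, and 12 of 18 were negative against 49.2% of genes. Leaving out 1 library at a time gave 0 to 4 such collagens (4 without HEV control 24, 0 without HEV PEG 14, 15 or 23). The family median was -0.63 with every library and -1.22 when control 17 was left out. It lay between -0.36 and -0.201 when control 8 or 24 or PEG 7, 14, 15 or 16 was left out. Leaving out control 9 turned it to 0.15, with 9 of 20 collagens negative, so its sign rested on that library. With every library, the 1 chain lower at an unadjusted p under 0.05 was Col6a2. It had 0.443, 48.5, 1.91 and 0.347 CPM in controls 8, 9, 17 and 24 and 0.0802 to 1.61 CPM (median 0.248) with PEG (-3.51 ± 1.49, adjusted p 0.79). The value was -1.14 without HEV control 9. Col3a1 had a fold change of -2.40 ± 1.13 with library 9 and 0.058 without it, and Col1a2 one of -3.19 ± 1.51, or -1.19 without HEV control 17. The chains that HEV cells carry in number had small differences and overlapping groups: Col4a1 0.26 ± 0.32, Col4a2 0.08 ± 0.31, Col15a1 -0.19 ± 0.28 and Col13a1 -0.38 ± 0.47. With PEG, Col4a1 had 185 to 311 CPM (median 243), Col15a1 49.8 to 135 CPM (median 94.4) and Col13a1 21.9 to 54.9 CPM (median 30.7). The median SE over the collagens tested was 1.39 in HEV and 0.25 in FRC, so a change of the size seen in FRC was not detectable for most chains in HEV.

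The difference between the PEG effects of HEV and FRC was tested over all 24 libraries. By edgeR 0 of 38 collagens and 2 of 18203 genes (0.011%) passed. At an unadjusted p under 0.05, 4 collagens had a higher and 7 a lower value in HEV, against 5.55% and 4.52% of genes. The DESeq2 Wald test called 6 (1 higher, 5 lower), among them Col1a1, Col1a2, Col6a2 and Col6a3 lower and Col5a3 higher, and limma-voom called 0. Those chains were at a few CPM or less in most HEV libraries. Without HEV control 9 the difference for Col1a1 moved from -4.56 to -1.56, for Col6a3 from -3.94 to -1.07 and for Col6a2 from -4.29 to -0.84. For the chains present in both cell types the differences were 0.64 ± 0.33 for Col4a1, 0.26 ± 0.30 for Col4a2, 0.18 ± 0.45 for Col15a1 and 0.21 ± 0.50 for Col13a1, with adjusted p from 0.52 to 0.94.

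Genes that fold, process, crosslink, bind or degrade collagen were examined as a list of 48. Between the cell types in unperturbed mice 29 of 42 tested were lower and 3 higher in HEV, and under PEG 32 of 40 were lower and 2 higher. Over all genes tested the shares were 14.2% lower and 10.4% higher in unperturbed mice and 14.4% and 12.5% under PEG. As with the collagens, a gene that passed the filter through FRC libraries alone had to be lower in HEV, so these counts are a description. By role, the lower genes in unperturbed mice were 9 of 17 tested for folding and modification, 6 of 7 for propeptide processing, 5 of 5 lysyl oxidases, which crosslink fibrils, 5 of 8 receptors and 4 of 5 collagen-degrading enzymes. The smallest p values belonged to Mrc2, a receptor that takes up collagen fragments (-10.65 ± 0.39), the lysyl oxidase Loxl1 (-10.66 ± 0.54) and the gelatinase Mmp2 (-6.75 ± 0.37), all without overlap. The 3 higher genes, named after their values were seen, were Tll1, a relative of the propeptide-cleaving proteinase Bmp1 (6.66 ± 1.08), the collagen galactosyltransferase Colgalt2 (3.73 ± 0.79) and the integrin chain Itga1 (1.09 ± 0.35, adjusted p 0.042). Tll1 (7.92 ± 1.36) and Colgalt2 (1.91 ± 0.61) were also the 2 higher under PEG. With PEG none of the 39 list genes tested passed in FRC or of the 31 tested in HEV by edgeR, and 3 were higher and 4 lower at an unadjusted p under 0.05 in FRC (3.84% and 2.93% of all genes) and 1 and 3 in HEV (2.96% and 3.23%). In FRC the smallest p values belonged to Pcolce2, which enhances propeptide cleavage (1.56 ± 0.32, adjusted p 0.48), Adamts2 (-0.54 ± 0.17, adjusted p 0.61) and Colgalt2 (3.35 ± 1.08, adjusted p 0.61).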

How the data were processed

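RNA of 24 libraries had been copied to cDNA by template switching from polyadenylated transcripts, per the labels' protocols. The deposited count of each gene model is the number of uniquely aligned reads, per the file headers. The deposited nRPKM is an RPKM that the authors adjusted by a size factor, per the file headers, and was proportional to the counts within each gene (relative tolerance 0.0001) for 10335 of 10335 genes with a read in every library. Reads were aligned with GSNAP, and mm9 is named per the submitters' processing notes, while the protocol text in the labels names another build; versions, strand setting and gene lengths are not given in the sources used here. Totals ran from 3115003 to 21710946 reads (median 16136689), and intervals and floors cover counting error only. Implied gene lengths lay within 25% of annotated exon lengths, up to a constant, for 38 of 44 collagens, so levels per length of the other 6 are less certain.

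Counts were tested with edgeR 4.0.16 (quasi-likelihood, TMM, pool as covariate, expression filter with a minimum of 10 counts) in R 4.3.3, with Benjamini-Hochberg adjustment over all genes tested and a threshold of 0.05. The SE is the log2 fold change divided by the square root of F. Alternatives were DESeq2 1.42.0, limma 3.58.1 (voom), other scalings, filters and covariates, subsets of pools and each library left out. On simulated counts for HEV against FRC in control mice (15677 genes), 95% of 100 genes changed 4-fold and 100% of 100 changed 16-fold were recovered. The simulation gave every gene the same spread, had no pool effect or outlying library, and changed only genes above a CPM minimum. The median SE of the collagens in the real comparison was 1.18, so this recovery does not carry over to them. Members and lists were chosen with earlier results of these data known. Every member is accounted for by class, those with a group mean of at least 10 CPM are described, up to 6 of smallest p and all that passed may be named per comparison, and up to 3 of smallest p of the pathway list. Comparisons between pools were added after the data were seen. Libraries of a group were treated as separate mice, and p-values measure the spread between them. No 2 libraries of a group agreed within sampling noise (smallest chi-square per gene 59.0). Symbols from the gene table covered 85.0% of identifiers and 97.3% of reads.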

Additional observations from a re-analysis of the deposited data

Results flagged for a closer look

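Within groups of 4 to 7 libraries, 75 checks of an extreme value were made on CPM values and 7 stood out. A chain was checked only in groups where its mean reached 10 CPM. The nominal rate of about 1 in 20 holds for independent checks. Here 4 flags came from 1 library, so the number of flags cannot be weighed against it. In HEV control library 9, 4 chains were far above the other 3 controls: Col1a1 at 51.3 CPM (others 0.341 to 3.40), Col3a1 at 363 CPM (5.07 to 17.3), Col6a1 at 54.0 CPM (0.486 to 1.08) and Col6a2 at 48.5 CPM (0.347 to 1.91). Of these, Col1a1, Col6a1 and Col6a2 reached the 10 CPM needed for a check only through library 9. Their means without it were 1.46, 0.839 and 0.900 CPM, so their flags followed from the filter and carry no weight. The same library had the highest fibroblast marker sum of its group, mostly from Dpt and Lum. It also had the highest pericyte and smooth muscle marker sum, mostly from Acta2, Des, Myh11, Actg2 and Cnn1. Most other members of the 2 lists were not raised in it. The part of these cells in the values was not tested. Among FRC libraries, Col22a1 stood out in FRC control 13 at 46.6 CPM (others 0.0588 to 14.6). Col24a1 did so in FRC PEG 3 at 29.1 CPM (5.25 to 15.1), and Col6a3 in FRC PEG 1 at 727 CPM (others at most 566).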

How the results depend on the processing

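Of 127 alternatives for the counts of called collagens, 5 moved a count by over 1.5 times. Without a filter on low counts 2 collagens were called lower with PEG in FRC and 1 in HEV. DESeq2 called 1 in FRC and 6 in the difference of PEG effects. Libraries 1 to 9 alone called 15 between the cell types of control mice (1 higher). Leaving out each library in turn gave 0 to 0 calls for PEG in FRC, in HEV and for their difference, 22 to 25 between cell types in control mice and 24 to 26 under PEG. For PEG in HEV, Col5a2 turned to 0.97 with pool and i5 index as covariates. Among libraries 10 to 24 alone, which leave out HEV control 9, Col3a1 turned to 0.75 and Col7a1 to -0.27. Col3a1 ranged from -3.22 to 0.058 when single libraries were left out, and was 0.058 without HEV control 9. Of 1576 alternatives for 67 pairs of a gene and a comparison, 1521 kept direction and call, 42 lost a call, 9 gained one and 4 reversed. The causes were not tested. HEV against FRC under PEG could not be fitted with pool and i5 index together, because FRC PEG and HEV PEG libraries shared no i5 index. Under PEG, i5 index and cell type therefore cannot be told apart, for Col15a1 as for the other chains. Control libraries of both cell types carried both indices. No paired analysis was possible because the labels number each library once and groups share no number. HEV control has 4 libraries and few reads of most collagens, which limits what could be detected there.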
